A study of Rattus norvegicus with 12 samples.

Results

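Adipokines are proteins that fat tissue releases into the blood, and 9 of their genes were followed here: leptin (Lep), adiponectin (Adipoq), resistin (Retn), adipsin (Cfd), Nampt, retinol-binding protein 4 (Rbp4), Fgf21, apelin (Apln) and angiotensinogen (Agt). They were chosen by name, as the probes whose gene symbol in the platform's probe-to-gene table is 1 of these 9, which gave 9 of 22523 probes, with 1 probe per member. All 9 were among the 12196 probes that passed the filter on low signals. RNA came from the epididymal fat pad of male Sprague-Dawley rats aged 40 days, in 6 rats labelled as having had their food removed for 6 h and 6 rats labelled as fed ad lib. The food removed rats have a somewhat longer time without food in the study's methods than in the labels. Each rat has 1 array, and all 12 arrays lie on 1 RatRef-12 BeadChip, on which a probe is carried by many beads and read as fluorescence.

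Leptin is made by fat cells in proportion to their fat store and tells the brain, through its receptor, how much energy is stored. In rodents its mRNA is known to be high in the fed state and to fall with fasting. Adiponectin and resistin are the other hormones of the rodent fat cell in this group, adipsin is the protease that starts the alternative complement pathway, and the remaining members are an NAD-forming enzyme that also circulates, a vitamin A carrier, a growth factor, a vessel-acting peptide and the precursor of angiotensin.

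Promoter stretches of the fat cell hormones Lep, Adipoq and Retn are shown because Lep was the member that differed between the groups and the other hormones did not pass the test. Each is 150 bases that end 1 base before the RefSeq start of the gene in GRCr8, written 5′ to 3′ on the gene's strand, and capitals mark matches to 7 searched motifs.
Lep (GRCr8, chr4:58626388-58626537, plus strand): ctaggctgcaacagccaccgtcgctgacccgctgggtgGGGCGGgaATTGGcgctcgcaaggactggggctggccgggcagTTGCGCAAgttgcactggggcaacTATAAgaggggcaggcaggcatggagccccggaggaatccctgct
Adipoq (GRCr8, chr11:91240170-91240319, minus strand): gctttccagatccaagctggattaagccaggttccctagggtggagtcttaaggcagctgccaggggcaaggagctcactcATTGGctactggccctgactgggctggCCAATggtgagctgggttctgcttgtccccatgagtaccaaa
Retn (GRCr8, chr12:6508624-6508773, plus strand): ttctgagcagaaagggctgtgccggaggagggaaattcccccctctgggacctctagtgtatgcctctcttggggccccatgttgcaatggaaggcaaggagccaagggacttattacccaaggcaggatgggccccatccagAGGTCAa
The motifs were TTGCGCAA (the palindromic core bound by C/EBP factors), GGGCGG (bound by Sp1), CCAAT (the CCAAT box), TATAA (the TATA box), AGGTCA (a nuclear receptor half-site), CACGTG (an E-box) and TGACGTCA (a cAMP response element), searched on both strands from 250 bases before to 50 bases after the start. In the Lep window TTGCGCAA stood at -69 to -62, GGGCGG at -112 to -107, CCAAT on the other strand at -104 to -100 and TATAA at -45 to -41, with no overlap between them. Of 27457 rat promoters of this length 0.197% held TTGCGCAA, 34.9% GGGCGG, 37.7% CCAAT and 26.1% TATAA. Lep was the 1 of 7 members with a promoter in the table that held TTGCGCAA, and for Nampt and Agt no promoter was read. The Adipoq window held CCAAT on each strand (-42 to -38 and, on the other strand, -69 to -65), and the Retn window held AGGTCA (15.7% of promoters) at -7 to -2 and at -169 to -164, and GGGCGG on the other strand at -208 to -203. GGGCGG was in 6 of the 7 members, TATAA in 3 and CCAAT in 2. These are letter matches and carry no measurement of binding.

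The raw median signal per array was 91.1 to 139.6, and 51.2 to 59.6% of probes were detected per array at a detection p under 0.05. Values are given below as log2 signal after background correction and quantile normalization with limma's neqc (offset 16). A difference of 1 is a 2-fold change of the corrected signal with the offset added. The 8 measured of 10 adipocyte markers were detected on all 12 arrays. Their mean log2 signal was 12.77 to 13.54 in arrays labelled food removed and 13.40 to 13.70 in arrays labelled ad lib. The array labelled food removed 3 stands apart, with a mean of 11.61 over 11 epididymis markers, against 4.79 to 6.14 on the other arrays labelled food removed and 4.91 to 5.72 on the arrays labelled ad lib. It had the lowest adipocyte marker mean of the 12 arrays, 12.77. In such bulk tissue, fewer fat cells and less RNA per fat cell cannot be told apart.

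Angptl4, the fasting-induced inhibitor of lipoprotein lipase, and Pdk4, the kinase that shuts down pyruvate dehydrogenase, were lower in arrays labelled food removed, and the study gives the opposite direction for both. Angptl4 signals were 8.82 to 11.06 in arrays labelled food removed and 11.91 to 12.29 in arrays labelled ad lib (log2 fold change -2.08, adjusted p = 0.00111 from limma). Pdk4 had a log2 fold change of -2.95 (adjusted p = 0.000236 from limma). The study gives its direction for these same arrays, so the opposite signs are readings of the same data. In separate experiments it reports by quantitative PCR that Angptl4 mRNA rose after food withdrawal and fell on re-feeding. The files do not settle which direction holds. The labels' names are therefore kept for both groups, and every sign below is the signal of arrays labelled food removed over that of arrays labelled ad lib.

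Lep was the 1 member of 9 that passed the test, and it was 2.94-fold higher in arrays labelled food removed. By the labels this sign is opposite to the fall with fasting given above, as Angptl4 and Pdk4 are opposite to the study. With the direction unsettled, a rise of Lep mRNA after food removal is not read from it. On the log2 scale the lowest, median and highest Lep signals were 7.98, 8.77 and 9.41 in arrays labelled food removed, against 6.13, 7.34 and 8.31 in arrays labelled ad lib. Of the 6 arrays labelled food removed, 5 lay above every array labelled ad lib, and the groups overlapped through food removed 3 (7.98) and ad lib 4 (8.31). Lep averaged 8.71 ± 0.47 in arrays labelled food removed and 7.16 ± 0.82 in arrays labelled ad lib (SD, n = 6 each). The log2 fold change was 1.55 (standard error 0.33, 95% interval 0.84 to 2.27, adjusted p = 0.0255 from limma, two-sided, adjusted over 12196 probes). A two-sided exact permutation test over the 924 assignments of the arrays gave p = 0.00433 for Lep, where 0.00216 is the smallest p possible. The size depends on the scale, since the ratio of the groups' mean linear signals was 2.69 and the same ratio in the authors' normalized table was 2.83. By size of rise, Lep stood at place 11 of 8583 tested genes and at place 6 of the 87 genes that were called higher. These places hold for the labels as given, and with the groups exchanged they would be places by size of fall.

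Without 1 array the difference of Lep stayed between 1.35 and 1.78, but its call was lost in 5 of 12 such fits. These were the fits without food removed 1, 2, 5 or 6 (adjusted p = 0.0628, 0.0605, 0.0545 and 0.0602 from limma) and the fit without ad lib 5 (adjusted p = 0.0638 from limma). Arrays labelled food removed lie at positions 1 and 3 to 7 of the chip and arrays labelled ad lib at 2 and 8 to 12, so place and group largely coincide. With chip position as a covariate the log2 fold change of Lep was 1.25 (standard error 0.43) and did not pass (adjusted p = 0.381 from limma), and 32 probes were called in place of 301. Neighbouring arrays of different label differed in the same direction, with Lep at 9.41 on food removed 1 at position 1 and at 8.85 on food removed 2 at position 3, against 7.48 on ad lib 1 at position 2. At the other border food removed 6 at position 7 had 8.84, against 7.53 on ad lib 2 at position 8. These 3 comparisons share ad lib 1 in 2 of them. Over the same neighbours Retn also differed in 1 direction, by 0.49, 0.72 and 0.58. Its group difference was -0.03, or 0.25 without food removed 3, which is not among these neighbours, and passed in neither fit. The neighbours therefore do not tell place and group apart.

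**Figure D1:**
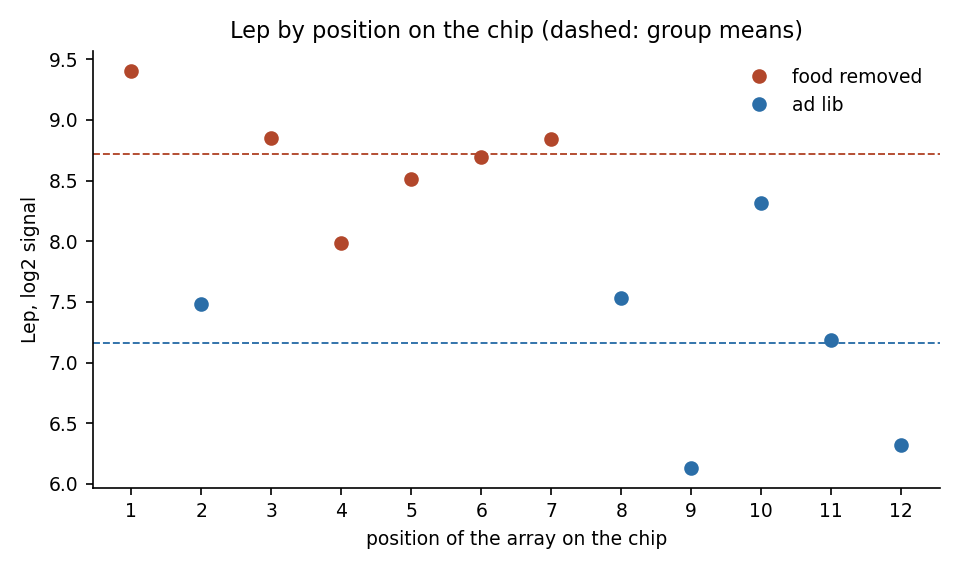
Log2 signal of Lep (vertical axis) by position of the array on the chip (horizontal axis, 1 to 12), with arrays labelled food removed in red and ad lib in blue and the group means dashed. The red points lie between 7.98 and 9.41 and the blue points between 6.13 and 8.31, and the blue point at position 2 lies below its red neighbours.

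Lep was thus the 1 higher member of 9, with 0 lower and 8 that missed the threshold, beside a background in which 2.57% of the 8583 tested genes were called, 1.01% higher and 1.56% lower. The median log2 fold change of the 9 members was -0.17, against -0.01 for all tested genes. Of the 9 differences 7 were negative, and the 95% intervals of all members other than Lep and Nampt included 0. This lean rests in part on food removed 3, the lowest array labelled food removed for each member. Without that array Retn (0.25) and Apln (0.12) were positive. Nampt (-0.34), Fgf21 (-0.22), Rbp4 (-0.21), Adipoq (-0.08) and Agt (-0.04) stayed negative. No member had groups that did not overlap, which held for 2.66% of all tested genes.

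**Figure D2:**
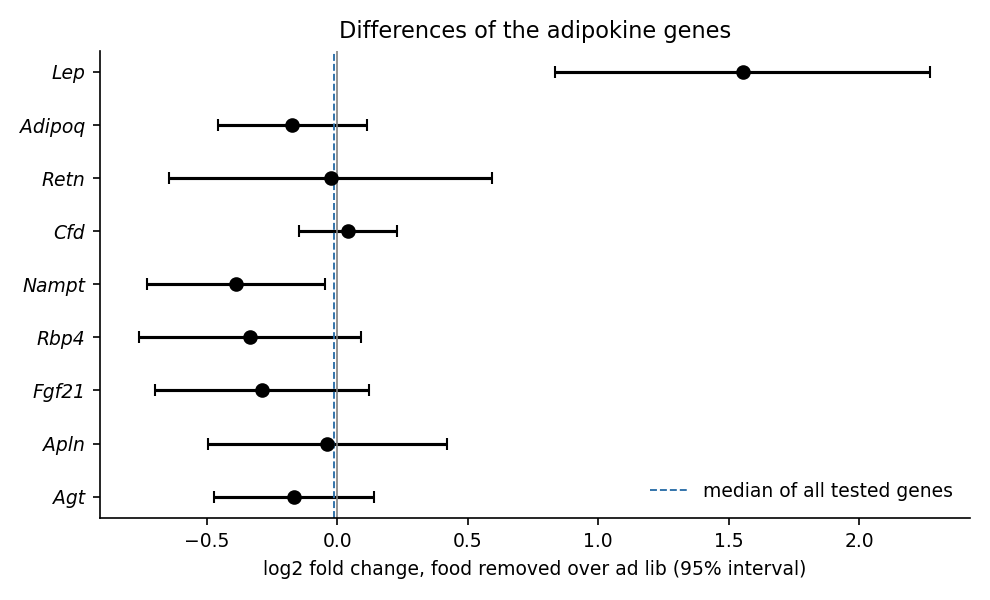
Log2 fold change of each member (horizontal axis, food removed over ad lib) with its 95% interval from the limma fit, and the median of all 8583 tested genes dashed. The point of Lep lies at 1.55, and the other 8 lie between -0.39 (Nampt) and 0.04 (Cfd).

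Adiponectin, the insulin-sensitizing hormone of the fat cell, and resistin, which opposes insulin action in rodents, did not pass the test. The lowest, median and highest Adipoq signals were 13.32, 13.85 and 13.99 in arrays labelled food removed, against 13.72, 13.93 and 14.27 in arrays labelled ad lib. The groups overlapped, and outside food removed 3 the arrays labelled food removed spanned 0.25 on the log2 scale. The log2 fold change of Adipoq was -0.17 (standard error 0.13, 95% interval -0.46 to 0.11, adjusted p = 0.582 from limma), so that a fall of 27.3% and a rise of 8.14% mark the ends of the interval. Retn signals were 8.64, 10.30 and 10.65 in arrays labelled food removed, against 9.72, 9.95 and 10.54 in arrays labelled ad lib. Food removed 3 was the lowest of the 12 arrays, and the other 11 overlapped. Retn had a log2 fold change of -0.03 (95% interval -0.65 to 0.59, adjusted p = 0.982 from limma), and of 0.25 without food removed 3 (adjusted p = 0.58 from limma).

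The probe of adipsin lay at the top of the signal range of the arrays. Raw Cfd signals were 31194 to 37878 in arrays labelled food removed, against 25310 to 37105 in arrays labelled ad lib, and Cfd was the brightest probe of the array on 9 of 12 arrays. Quantile normalization gives the brightest probe of every array 1 common value, so Cfd stood at 15.01 on those 9 arrays and had no order among them. On food removed 3, where Cfd was second, the top value went to Gpx5, an epididymis marker. The log2 fold change of Cfd was 0.04 (95% interval -0.15 to 0.23, adjusted p = 0.875 from limma), while the ratio of means in the authors' table was 0.925, so its sign depended on the normalization. Cfd was the 1 member with a mean raw signal of at least 50% of the brightest probe, at 99.4% in arrays labelled food removed and 98.4% in arrays labelled ad lib. Just under that line were Agt, at 45.0% in arrays labelled food removed and 49.5% in arrays labelled ad lib, and Adipoq, at 42.8% in arrays labelled food removed and 47.9% in arrays labelled ad lib. The files used here carry no saturation flag, and whether these bright probes were compressed was not tested.

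Nampt, which makes nicotinamide mononucleotide for NAD and is also released from fat cells, had the smallest p after Lep but did not pass the test. Its lowest, median and highest signals were 10.95, 11.14 and 11.44 in arrays labelled food removed, against 11.22, 11.51 and 12.10 in arrays labelled ad lib. The arrays labelled food removed all lay below the ad lib mean of 11.56, but the groups overlapped between 11.22 and 11.44. The log2 fold change of Nampt was -0.39 (standard error 0.16, 95% interval -0.73 to -0.05), with p = 0.0346 in the exact permutation test and adjusted p = 0.243 from limma. Over the 27 alternative settings the value stayed between -0.46 and -0.20, and none passed.

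Rbp4, the plasma carrier of retinol, had signals of 9.06, 9.73 and 10.16 (lowest, median, highest) in arrays labelled food removed, against 9.55, 10.12 and 10.21 in arrays labelled ad lib. Food removed 3, 4 and 5 were low at 9.06, 9.37 and 9.40, and ad lib 6 was low at 9.55, while the other 8 arrays lay between 9.98 and 10.21. These 4 low arrays were the 4 on which Lcn5, a lipocalin of the epididymis, was over 8 on the log2 scale (8.96 to 14.49 in arrays labelled food removed and 11.15 on ad lib 6, against 4.59 to 6.28 elsewhere). The log2 fold change of Rbp4 was -0.33 (95% interval -0.76 to 0.09, adjusted p = 0.446 from limma). A planned setting left out food removed 3 and 4, whose epididymis marker means were more than 1 above the median. It gave -0.10 (adjusted p = 0.848 from limma). Without the 4 arrays with high Lcn5, a setting chosen after the data were seen, the value was -0.02 (adjusted p = 0.962 from limma). Since those 4 were the lowest arrays for Rbp4, that value does not test the part of epididymal RNA.

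Fgf21, a hormone best known from the liver and also made in fat, was the dim member. It was detected on 5 of 6 arrays in each group, with raw signals of 99.9 to 166.8 in arrays labelled food removed and 87.1 to 158.4 in arrays labelled ad lib. These overlap the range of the arrays' median raw signals, and a fold change this close to background is understated by the offset. Fgf21 had a log2 fold change of -0.29 (95% interval -0.70 to 0.12, adjusted p = 0.505 from limma).

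Apelin, the ligand of the receptor Aplnr, had signals of 8.55, 9.40 and 9.80 in arrays labelled food removed, against 9.03, 9.37 and 9.83 in arrays labelled ad lib. The groups overlapped between 9.03 and 9.80, and food removed 3 (8.55) lay below every array labelled ad lib. The log2 fold change of Apln was -0.04 (95% interval -0.49 to 0.42, adjusted p = 0.959 from limma). Angiotensinogen, the substrate of renin, had signals of 13.21, 13.90 and 14.12 in arrays labelled food removed, against 13.83, 14.05 and 14.15 in arrays labelled ad lib. Food removed 3 was the lowest of the 12 arrays, and the other 11 spanned 0.33 on the log2 scale. Agt had a log2 fold change of -0.17 (95% interval -0.47 to 0.14, adjusted p = 0.632 from limma) and of -0.04 without food removed 3.

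**Figure D3:**
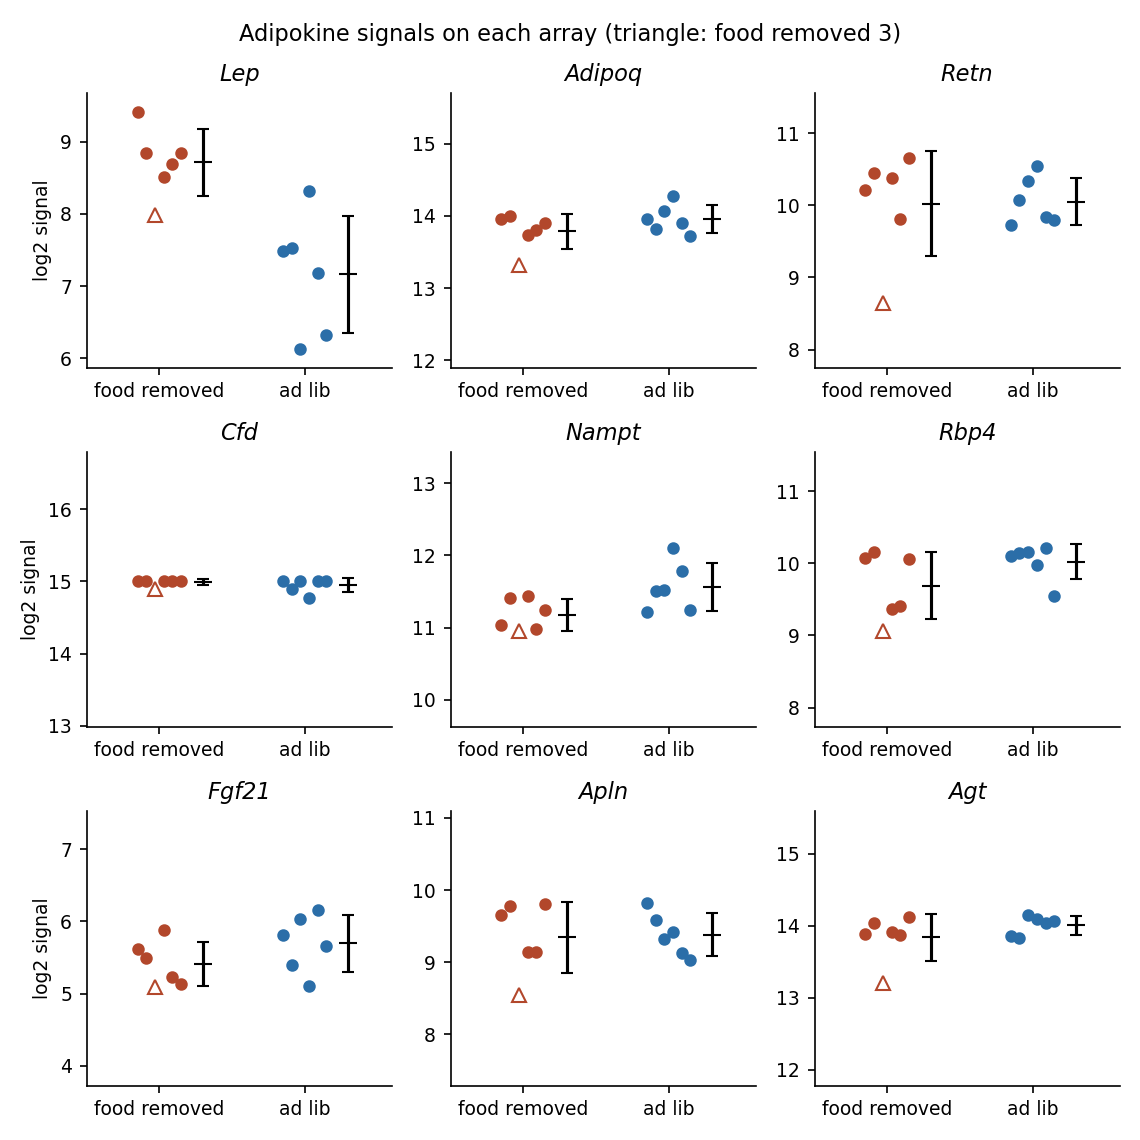
Log2 signal of the 9 members on each array (vertical axis, the same span in every panel), food removed left and ad lib right, with the mean and SD of the 6 arrays as a bar and food removed 3 as an open triangle. Lep is separated between the groups except for 2 arrays, and the triangle is the lowest food removed point in all 9 panels.

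Food removed 3, the array rich in epididymis markers, was the lowest of the arrays labelled food removed for 9 of 9 members and the lowest of all 12 arrays for 7. Its distance below the mean of the other 5 arrays labelled food removed differed between members, and the part of epididymal RNA in these values was not tested. The log2 difference was -1.66 for Retn, -0.95 for Apln, -0.88 for Lep and -0.75 for Rbp4 and for Agt. It was -0.55 for Adipoq, -0.39 for Fgf21 and -0.26 for Nampt. For Cfd it was -0.11, which is the step between the top values set by quantile normalization and is not read as a smaller distance. Without this array the log2 fold change of Lep was 1.70 (adjusted p = 0.0175 from limma). Without the 4 arrays rich in Lcn5 it was 1.70 (adjusted p = 0.0405 from limma). Set against the mean of the 8 adipocyte markers on the same array, which was 0.18 lower on the log2 scale in arrays labelled food removed, Lep was higher by 1.74 (p = 0.00216, exact permutation test, the smallest possible). That scale was not planned beforehand. The Lep groups did not overlap on it. The share of all tested genes without overlap on it was not counted, so this non-overlap is not read as particular to Lep. The 8 adipocyte markers did not move as 1, with Lipe at -0.53 and Aqp7 at -0.48 but Dgat2 and Gpd1 at 0.18 each, and 0 of them passed. Pnpla2, also a marker of this list, was at -0.40. Its signals were 13.43 to 14.22 in arrays labelled food removed and 14.26 to 14.50 in arrays labelled ad lib, without overlap. The part of the markers in the separation of Lep on this scale was not tested. Relative to these markers the members other than Lep differed by -0.20 (Nampt) to 0.23 (Cfd), with p = 0.167 and 0.0736 (exact permutation test). Adipoq and Agt were nearest to 0, at 0.01 and 0.02 (p = 0.853 and 0.738, exact permutation test). Among the marker lists of other cells, endothelial and macrophage markers had lower means in arrays labelled food removed. The mean of 5 endothelial markers was 8.23 to 9.31 in arrays labelled food removed and 9.15 to 9.80 in arrays labelled ad lib, a difference of -0.56 (-0.43 without food removed 3), and of these 5 Cldn5 was called lower. The mean of 5 macrophage markers was 9.14 to 10.20 in arrays labelled food removed, which encloses the 9.79 to 10.15 of arrays labelled ad lib. The difference was -0.27 (-0.17 without food removed 3), with 0 called. As medians over tested genes, the log2 fold change was -0.57 for endothelial and -0.37 for macrophage markers. Brown adipocyte, smooth muscle, fibroblast, mesothelial, lymphocyte and blood lists had medians from -0.12 (mesothelial) to 0.14 (lymphocyte), with 0 called. The part of these cells in the members' values was not tested.

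**Figure D4:**
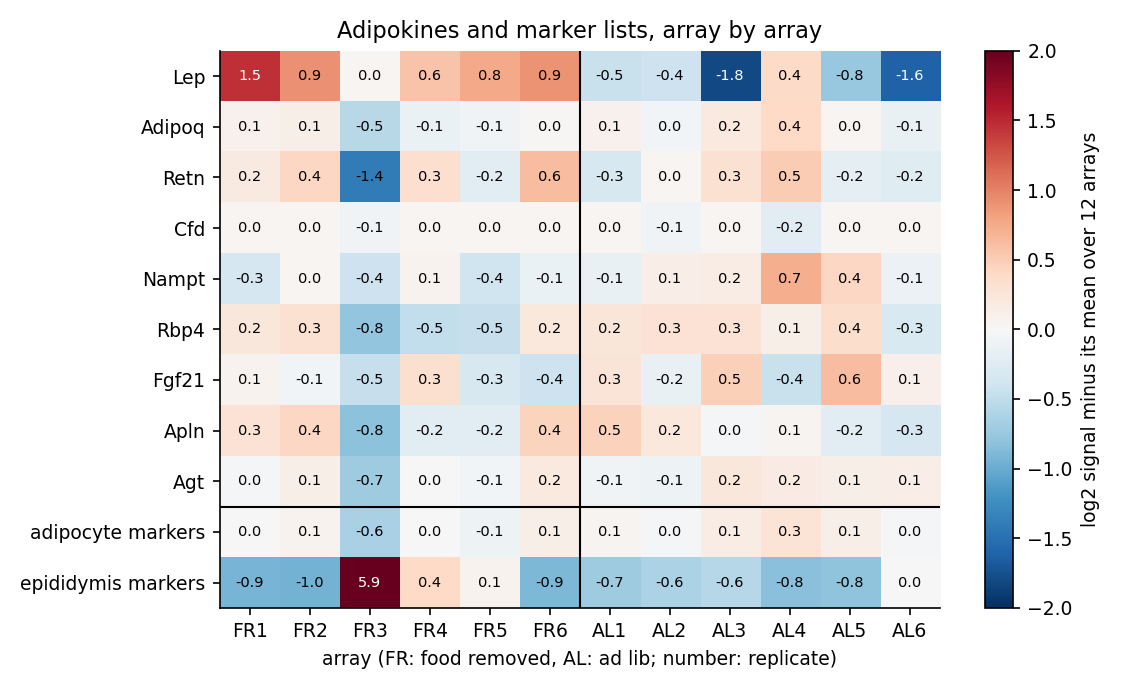
Log2 signal of each member minus its mean over the 12 arrays, with the means of the 8 adipocyte and 11 epididymis markers below, arrays labelled food removed (FR) left of the line and ad lib (AL) right of it. FR3 is low for the members other than Lep and Cfd, and its epididymis value runs past the end of the colour scale.

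Whether Lep changed by another amount than the other members was asked within arrays, as the log2 signal of Lep minus that of each member on the same array. Against the 6 members that were neither at the top of the range nor dim, Lep was higher by 1.58 (Retn) to 1.94 (Nampt). Against Adipoq this difference was -5.34 to -4.55 in arrays labelled food removed and -7.94 to -5.96 in arrays labelled ad lib, so the groups lay apart. The mean shift against Adipoq was 1.73 (standard error 0.32, 95% interval 1.01 to 2.45, p = 0.00216, exact permutation test). The groups lay apart for each of these 6, with that smallest possible p. Against Cfd, which held 1 common value on 9 arrays, and Fgf21, which was near background, the groups overlapped, and the shifts of 1.51 and 1.84 are not read as differences from those members. Such separation was common, since 32.8% of 12195 other probes had Lep minus the probe apart between the groups, and it is therefore not particular to the other adipokines.

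**Figure D5:**
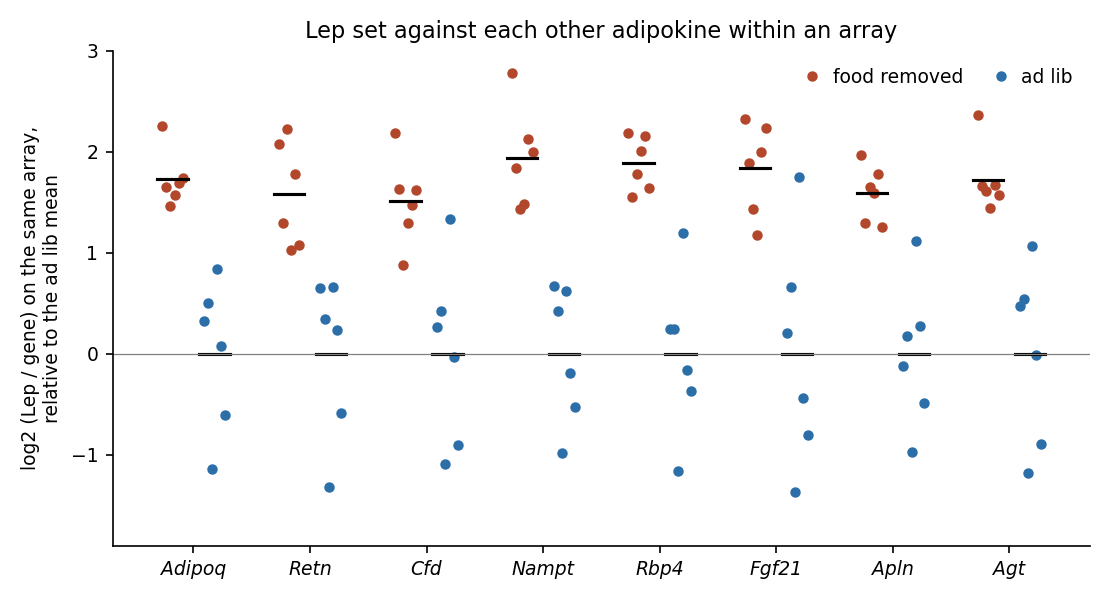
Log2 ratio of Lep to each other member on the same array (vertical axis, relative to the ad lib mean of that ratio), food removed in red at the left and ad lib in blue at the right of each gene, with group means as bars. The red means lie 1.51 to 1.94 above the blue ones, and red and blue points overlap for Cfd and Fgf21.

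Among the 28 pairs without Lep the groups lay apart for 0. For 2 of these pairs the 95% interval left out 0. Rbp4 against Apln had a difference of -0.30 (95% interval -0.57 to -0.02, p = 0.0238, exact permutation test, not adjusted for the 36 pairs compared). The other was Cfd against Nampt, and since Cfd held 1 common value on 9 arrays this pair restates the values of Nampt and is not read as a difference between the members. For the other 26 pairs the intervals included 0, which does not show that those members changed alike.

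Of 97 other genes tied to these adipokines, 74 had a probe, 59 were tested, and 0 were higher and 2 lower, or 3.39%, beside the 2.57% of all tested genes. Both belong to the 21 tested other adipokines, whose median log2 fold change was 0.07. C1qtnf1, a secreted relative of adiponectin, had 8.97 to 9.36 in arrays labelled food removed and 9.94 to 10.87 in arrays labelled ad lib. These groups did not overlap, and the log2 fold change was -1.22 (standard error 0.16, adjusted p = 0.00111 from limma), the opposite sign to Lep. With chip position as a covariate it was -1.03 (adjusted p = 0.0519 from limma). The other called gene was Angptl4, given above.

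None of the 9 tested genes of leptin and adiponectin secretion and reception passed (median 0.07). Nearest to a change were Ptpn1, a phosphatase that damps leptin and insulin receptor signals, at 0.35 (adjusted p = 0.107 from limma), and Stat3, which carries the leptin receptor signal, at 0.30 (adjusted p = 0.205 from limma). The leptin receptor gene Lepr and its feedback inhibitor Socs3 were detected on 0 of 12 arrays. Among 8 tested transcription factors of adipokine genes 0 passed (median -0.05), with Cebpb at 0.33 (adjusted p = 0.209 from limma) and the liver X receptor gene Nr1h3 at -0.39 (adjusted p = 0.245 from limma). Cebpa, which encodes a C/EBP factor known to bind the Lep promoter in mouse, differed by 0.07 (adjusted p = 0.914 from limma) and was named after its value was seen.

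Of 4 tested genes of the alternative complement pathway, in which adipsin cleaves factor B, 0 passed (median -0.33), with Cfb, factor B, at -0.43 (adjusted p = 0.261 from limma) and Cfp, properdin, at -0.40 (adjusted p = 0.309 from limma). Among 9 genes of NAD synthesis and use 0 passed (median -0.18), and the deacetylase gene Sirt2 and the methyltransferase gene Nnmt had -0.40 and -0.34 (adjusted p = 0.209 and 0.412 from limma). Of 4 genes of the angiotensin system 0 passed (median -0.06), with the receptor gene Agtr1a at -0.28 and the aminopeptidase gene Enpep at 0.40 (adjusted p = 0.369 and 0.716 from limma). The 4 tested partners of Rbp4, Fgf21, Apln and Retn had a median of 0.26 and 0 passed. Ttr, transthyretin, the plasma partner of Rbp4, had a log2 fold change of 1.01 (adjusted p = 0.243 from limma) and was detected on 7 of 12 arrays. Cap1, reported as a resistin receptor in human cells, had 0.26 (adjusted p = 0.417 from limma).

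The genes whose signal followed that of Lep most closely within the groups were Timp3, an inhibitor of matrix proteases, Smad2, a transducer of TGF-beta signals, and Dhx33, an RNA helicase. After subtraction of the group means their correlations with Lep over the 12 arrays were 0.96, 0.95 and 0.95, and 0.95, 0.94 and 0.95 without food removed 3. They are the top of 8583 genes and are given as a description, on arrays that share a chip and a normalization. Their own log2 fold changes were 0.42, -0.01 and 0.07, and none passed (adjusted p = 0.356, 0.979 and 0.887 from limma).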

How the data were processed

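RNA of epididymal fat was measured on 12 arrays. The authors deposited raw signal intensity per probe, with the standard error and number of beads, a detection p-value set by their software against negative controls, and a second table of normalized intensity on a linear scale. Cubic spline normalization in Illumina's software is named in the methods, and the submitters' processing notes name GenomeStudio (version not given). The deposited normalized values keep the raw order of probes on each array and share a median of 23.3. Their further centring is not given in the sources used here.

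Raw signals were processed with neqc (limma 3.58.1, R 4.3.3, offset 16). The 12196 probes detected (p under 0.05) on 6 or more arrays entered lmFit and eBayes. Tests were two-sided, with Benjamini-Hochberg adjustment over these probes. For each of 8583 genes the probe with the highest mean signal was used. Probe symbols came from the platform annotation. The fit was checked on simulated data with independent probes. That check does not cover the shared chip, the chip positions or the tissue admixture of these arrays. Groups and replicate numbers came from the labels. Whether the members differ from each other was to be tested with limma on log ratios, but that fit gave no usable variance prior, so ordinary linear-model intervals (10 residual degrees of freedom) and exact permutation tests are given. Named genes are the 9 members, the called genes of each list or else its 2 smallest p-values, the 3 genes most like Lep, and Angptl4 and Pdk4. Cebpa, Lepr, Socs3 and the markers given by name were added after their values were seen. Members, lists and tests were chosen with earlier results of these data known. Alternatives covered background, normalization, offset, filter, variance model, array weights, the methods' t-test, replicate block, chip position and arrays left out. The number of arrays limits the precision. Promoters are from RefSeq (GRCr8).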

Additional observations from a re-analysis of the deposited data

Results flagged for a closer look

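In 3 of 22 groups of 6 arrays looked at (9 members, C1qtnf1 and Angptl4) 1 array lay far from the other 5 by Dixon's 95% value, and chance marks about 1 in 20 groups. Agt stood at 13.21 on food removed 3, with the next array labelled food removed at 13.87. Cfd stood at 14.90 on food removed 3, and the other 5 arrays labelled food removed share the value 15.01 that quantile normalization gives to the brightest probe. Rbp4 stood at 9.55 on ad lib 6, with the next array labelled ad lib at 9.98. Food removed 3 and ad lib 6 are both among the 4 arrays with Lcn5 over 8 on the log2 scale, and the part of that RNA in these values was not tested.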

How the results depend on the processing

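No direction of Lep, C1qtnf1 or Angptl4 reversed under the alternatives, and no uncalled member became called. The log2 fold change of Lep ran from 1.15 (no background correction) to 1.79 (2 arrays over the cut for epididymis markers left out). Lep kept its value of 1.55 but lost its call, leaving 0 members called, with no filter on dim probes (adjusted p = 0.0592, 22523 probes tested, limma) and with the methods' t-test (adjusted p = 0.0794, which called 1909 probes unadjusted and 230 adjusted). It was 1.25, with 0 members called, with chip position as a covariate. The cause of these lost calls was not tested, except that the first adjusts over more probes. Without 1 array in turn Lep ran from 1.35 to 1.78, the members called from 0 to 1 and the probes called from 157 (without ad lib 5) to 483 (without food removed 4), with 183, 180, 187 and 186 without food removed 1, 2, 5 and 6, in place of 301. The probes called numbered 103 when arrays were shifted to 1 median and not quantile-normalized, 840 with array weights and 32 with chip position. Without the 4 arrays rich in Lcn5, 4 of the 8 differences of Lep from another member had an exact permutation p under 0.05, on 3 against 5 arrays. On all 12 arrays it was 8 of 8. These 8 include the pairs with Cfd and Fgf21, which are not read as differences. Of 301 calls 42.5% were higher and 57.5% lower by the labels, and of 252 calls 67.5% were higher and 32.5% lower when each array was centred on its adipocyte markers, which shifts every difference by 0.18. With the labels exchanged the higher and lower shares change places. C1qtnf1 had -1.03 and lost its call with chip position.

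Replicate numbers occur in both groups, and whether equal numbers pair rats is not known. Deviations of same-numbered arrays correlated at -0.41 to 0.13 and none was closest to its own number. Such correlations over all probes cannot show that the rats were unpaired. With the replicate block Lep had 1.55 (standard error 0.26, against 0.33 without the block, adjusted p = 0.0296, limma) and 178 probes were called.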
